A study of Mus musculus with 16 samples.

Results

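Rodent endogenous retrovirus (ERV) families were followed in RNA of sorted mouse bone marrow LSK cells (negative for lineage markers, positive for Sca1 and Kit), which include blood stem cells and early progenitors. The members are repeat rows of the count files, each a repeat family summed over the genome, whose name starts, ignoring case, with IAP, RLTR, MMERVK, MERVK, MERVL, MT2, MMVL30, MuLV or MuRRS; the row RLTRETN_Mm was left out. This gave 227 of 1201 repeat rows, among 31342 rows in all. They comprise 25 IAP rows, 8 MERVL rows with their MT2 long terminal repeats (LTRs), 4 MuLV and VL30 rows, 6 MMERVK rows and 184 RLTR rows.

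All 16 libraries came from transplant recipients given donor marrow mixed 1:1 with CD45.1 competitor marrow. Donors carried Mx1-Cre, an interferon-inducible recombinase that poly(I:C) switches on, and had either only mouse WT DNMT3A or a human DNMT3A R882H knock-in allele beside the mouse WT one. The donor strain was built from C57BL/6N-derived embryonic stem cells. Poly(I:C) was given at 15 µg per g, and marrow was harvested 4 weeks later; a second schedule of 400 µg is also listed. Recipients received azacitidine, a cytidine analogue that traps DNA methyltransferases, at 2.5 mg per kg, or 0.9% NaCl, over 2 weeks. The WT genotype has 4 NaCl and 3 azacitidine libraries, and R882H has 4 and 5. The labels give no ages and leave unsaid whether the LSK sort separated donor from competitor cells. They also do not state that libraries of a group came from separate animals, so p-values measure the spread between these libraries.

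An ERV is the remnant of an ancient retroviral infection of the germ line, with an internal part that once encoded gag, pol and in some families env, between 2 LTRs that carry the promoter. In mouse cells most copies are held silent by DNA methylation, for which DNMT1 is the maintenance and DNMT3A a de novo enzyme, and by H3K9 methylation laid down by SETDB1 with TRIM28 and KRAB zinc finger proteins. IAP elements are young and mobile and depend strongly on DNA methylation, MERVL elements with their MT2 LTRs are known for a burst of transcription in the early embryo, and MuLV and VL30 elements are gammaretroviral and often active in blood cells.

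Libraries held 35860445 to 56012766 counts, of which 33417449 to 53581601 fell on genes. Levels are given as counts per 1000000 gene counts (CPM), so that repeat counts do not enter their own scale. The ERV rows took 0.293 to 0.734% of all counts and 6.55 to 11.8% of the counts on repeats. Repeats as a whole took 2.97 to 10.1% of a library, and 2 libraries stood above the others: WT with azacitidine, number 1, at 10.1%, and R882H with NaCl, number 1, at 6.81%. The same 2 libraries had the most structural RNA, satellite and simple repeat counts, at 40012 and 20776 CPM, against 3711 to 11647 CPM in the other libraries. Mouse Dnmt3a does not check the genotype labels, since WT and R882H donors both carry the mouse gene. Kit ran from 402 to 1239 CPM and Ly6a, which encodes Sca1, from 30.6 to 270.1 CPM over the 16 libraries.

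Of the 227 rows, 218 passed the filter on low counts. The 9 that failed had a mean of at most 0.113 CPM, and the lowest mean that passed was 0.149 CPM. Most families were scarce: the median row that passed stood at 3.74 CPM, 173 were under 10 CPM and 5 were above 100 CPM. Those 5 were RLTR4_MM-int and RLTR4_Mm, the internal part and LTR of a murine leukaemia virus family, MuLV-int, IAPEz-int and RLTR11A. The first 3, all murine leukaemia virus rows, took 36.7 to 63.2% of the ERV counts of a library, and RLTR4_MM-int alone 25.4 to 47.2%. Per kilobase of annotated copies the same virus rows also stood out, at 3.52 CPM per kb for RLTR4_MM-int, 2.34 for RLTR4_Mm and 1.57 for MuLV-int, against a median of 0.0168 CPM per kb. Only RLTR30D_RN, with 17357 annotated bases, was higher, at 4.94 CPM per kb. IAPEz-int had 0.0148 CPM per kb and MERVL-int 0.00208 CPM per kb.

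The question the design poses for these families is whether azacitidine, which lowers DNA methylation, changed their level, and whether the R882H allele altered that response. In R882H cells no ERV row differed between azacitidine and NaCl by edgeR's quasi-likelihood test, and the class levels lay inside the range of the NaCl libraries for most libraries. In WT cells 1 of 218 rows, MMERVK10D3_I-int, passed the test as higher, a call that ended under both TMM scalings, with DESeq2 and without 5 of the 16 libraries, each left out in turn. No row differed between the responses of the genotypes, or between R882H and WT under either treatment. The plot of summed levels by library shows the 5 classes beside the repeats that are not members.

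**Figure D1:**
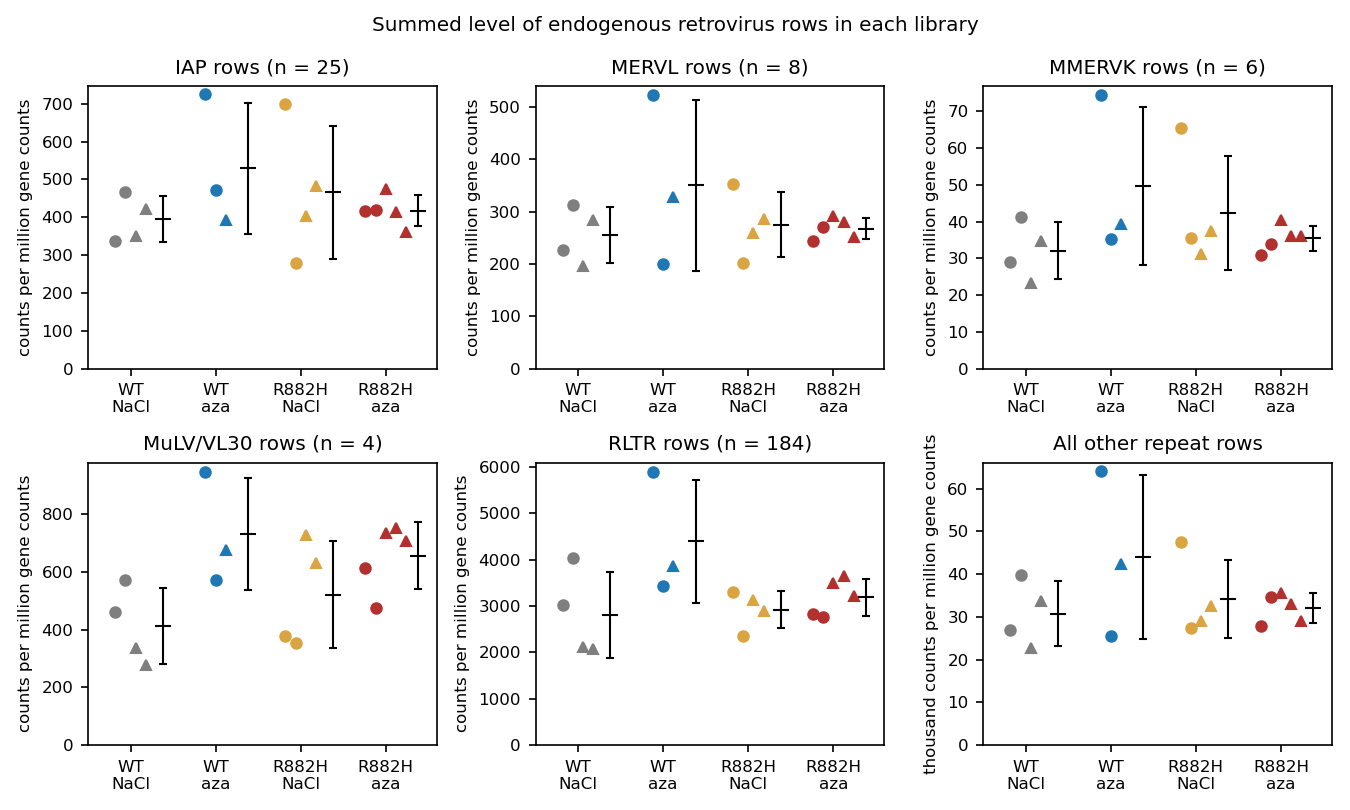
Summed level of each ERV class in each library, in CPM, with the other 886 repeat rows at the lower right (structural RNA, satellite and simple repeats left out). Circles are libraries numbered 1 and 2 and triangles those numbered 3 and above; bars are mean ± SD (n = 4, 3, 4 and 5). The highest point of WT with azacitidine is library 1 in every panel, at 725 CPM for IAP and 523 CPM for MERVL.

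IAP rows, whose copies include the IAPEz proviruses, summed to 338, 467, 351 and 421 CPM in WT with NaCl and to 725, 472 and 392 CPM in WT with azacitidine. In R882H they summed to 699, 279, 404 and 483 CPM with NaCl and to 416, 419, 475, 414 and 360 CPM with azacitidine. The treated WT libraries overlapped the NaCl libraries, and the single highest R882H value was that of NaCl library 1. IAPEz-int, the internal part of the main IAP family and its most abundant row, was at 130, 178, 150 and 146 CPM in WT with NaCl and at 312, 202 and 134 CPM in WT with azacitidine. In R882H it was at 278, 130, 164 and 169 CPM with NaCl and at 140, 144, 176, 191 and 120 CPM with azacitidine. These values overlapped in both genotypes, and the log2 difference was 0.52 ± 0.32 (SE; edgeR adjusted p = 0.279) in WT and -0.26 ± 0.29 (adjusted p = 0.991) in R882H. Its LTRs, IAPLTR1_Mm and IAPLTR2_Mm, had log2 differences of 0.56 and 0.69 in WT and of -0.32 and -0.44 in R882H, none past the test. The ratio of IAPLTR1_Mm to IAPEz-int counts kept between 0.149 and 0.236 in all libraries.

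IAP1-MM_I-int, the internal part of another IAP family, was the IAP row with the lowest p in WT. It was at 22.1, 22.4, 17.5 and 19.2 CPM with NaCl and at 42.2, 60.01 and 31.8 CPM with azacitidine, so the 2 sets of WT libraries did not overlap. The log2 difference was 1.14 ± 0.35 (SE), which did not pass adjustment over the repeat rows (edgeR adjusted p = 0.227). Here the highest treated library was number 2, which held fewer counts on the other repeats (25612 CPM) than the other 2 treated WT libraries. In R882H it stood at 67.8, 21.3, 23.2 and 30.8 CPM with NaCl and at 45.9, 38.1, 35.3, 26.4 and 28.5 CPM with azacitidine; these overlapped, and NaCl library 1 was the highest of the 9. Its LTR row IAP1-MM_LTR and IAPLTR3, which were singled out after their values were seen, did not overlap in WT either, with log2 differences of 1.04 and 1.48 (adjusted p = 0.275 for both). The 4 IAP rows with a fitted difference under 0 in WT were all IAPEY rows, a distinct IAP subgroup. Other IAPEY rows, IAPEy-int and IAPEY_LTR among them, were above 0. When scaled by TMM over repeat rows, 13 of the 24 IAP rows were under 0. IAPEY4_I-int, the most abundant of the 4, was at 69.6 ± 15.99 CPM in WT with NaCl and 62.3 ± 17.9 CPM in WT with azacitidine (SD, n = 4 and 3). Its log2 difference was -0.16 ± 0.34 (SE, edgeR adjusted p = 0.696).

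MERVL rows followed the other repeats closely. The class summed to 226, 313, 196 and 284 CPM in WT with NaCl and to 523, 200 and 327 CPM in WT with azacitidine. In R882H it summed to 352, 202, 259 and 286 CPM with NaCl and to 244, 271, 292, 279 and 252 CPM with azacitidine. The treated WT libraries held the highest value and one of the 3 lowest values of all 16. As a percentage of the level of the other repeats, the class stayed between 0.737 and 0.888% in every library, while those repeats ran from 22626 to 64085 CPM. All 8 MERVL rows had fitted differences above 0 in WT, by 0.36 to 0.80 on the log2 scale, against 96.9% of all repeat rows above 0, and none passed the test. Scaled by TMM over repeat rows, 2 of the 8 (MERVL-int at 0.17 and MT2_Mm at 0.05) were above 0 and 6 under 0, against 49.2% of all repeat rows above 0.

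MERVL-int, the internal part, was at 5.87, 9.37, 4.68 and 9.24 CPM in WT with NaCl and at 21.6, 5.21 and 11.3 CPM in WT with azacitidine. One treated library lay inside the NaCl range and 2 above it, and the log2 difference was 0.80 ± 0.37 (SE; edgeR adjusted p = 0.275). MT2_Mm, its LTR, was at 9.66, 13.5, 8.63 and 12.2 CPM with NaCl and at 24.5, 9.71 and 15.6 CPM with azacitidine, a log2 difference of 0.60 ± 0.34 (adjusted p = 0.275). In R882H the log2 differences of MERVL-int and MT2_Mm were -0.25 ± 0.32 and -0.01 ± 0.30 (adjusted p = 0.991 and 0.993). Of the 13 genes of the two-cell list, which accompany MERVL activity in embryos, only 4 had a row. These 4 summed to at most 0.189 CPM in any library, and none passed the filter. The rest of the list could not be checked.

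**Figure D2:**
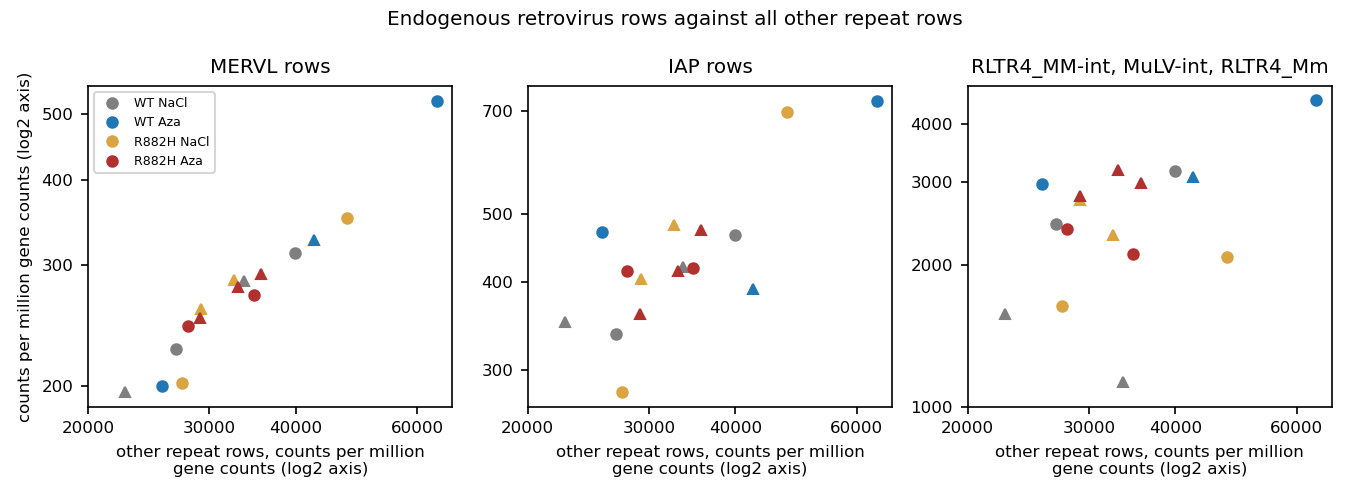
Summed level of MERVL rows, IAP rows and the 3 most abundant murine leukaemia virus rows (vertical, CPM, log2 axis) against all other repeat rows (horizontal, CPM, log2 axis), 1 point per library; circles are libraries numbered 1 and 2 and triangles those numbered 3 and above. MERVL points lie close to a line (r = 0.97 over 16 libraries), IAP points less so (r = 0.78), and the virus rows scatter (r = 0.47).

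Across the 16 libraries, the log2 level of the MERVL class and that of the other repeats had r = 0.97, and r = 0.94 without the 2 libraries with the largest repeat share. The RLTR class without its RLTR4 rows gave 0.98 and 0.95, MMERVK 0.91 and 0.79, and IAP 0.78 and 0.45. The MuLV and VL30 class gave 0.37 and 0.35. These are descriptions over libraries that share depth, scale and group structure. Over single rows, the median r was 0.80 for the 217 rows with a value, 49 rows were above 0.9, and 7 of the 8 MERVL rows were among them. Internal parts and LTRs did not part on this measure, with a median r of 0.77 for 30 internal rows and 0.80 for 188 LTR rows, and their median log2 difference under azacitidine in WT was 0.53 and 0.52. The 31 rows under 0.5 included 9 of 24 IAP rows and MuLV-int at 0.16.

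MuLV-int and RLTR4_MM-int, the internal parts of murine leukaemia virus-related proviruses, were among the 5 most abundant ERV rows. RLTR4_MM-int was at 1784, 2425, 1131 and 784 CPM in WT with NaCl and at 3423, 2218 and 2276 CPM in WT with azacitidine. In R882H it was at 1608, 1179, 1880 and 1559 CPM with NaCl and at 1659, 1511, 2122, 2253 and 1978 CPM with azacitidine. The WT groups overlapped through NaCl library 2, and the R882H groups overlapped widely. Its log2 difference was 0.79 ± 0.32 (SE; edgeR adjusted p = 0.275) in WT and 0.29 ± 0.29 (adjusted p = 0.991) in R882H.

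MuLV-int was at 379, 449, 279 and 199.8 CPM in WT with NaCl and at 654, 453 and 555 CPM in WT with azacitidine. These groups did not overlap, by a margin of few CPM, and the log2 difference was 0.76 ± 0.34 (SE; edgeR adjusted p = 0.275). In R882H it was at 217, 232, 656 and 548 CPM with NaCl and at 515, 367, 637, 677 and 619 CPM with azacitidine. R882H libraries 1 and 2 with NaCl stood apart from all others of that genotype, and the log2 difference was 0.45 ± 0.30 (adjusted p = 0.991). MuLV-int and RLTR4_MM-int had positive fitted differences in both genotypes, also when libraries were scaled by their repeat counts (0.33 and 0.37 in WT, 0.45 and 0.35 in R882H). On that repeat scale the lowest edgeR adjusted p of any ERV row was 0.917 in WT and 0.963 in R882H. Of all repeat rows, 49.2% in WT and 47.2% in R882H were above 0 on it. Scaled by gene counts, the difference between the responses was -0.32 ± 0.45 for MuLV-int and -0.49 ± 0.43 for RLTR4_MM-int (SE, edgeR adjusted p = 0.598 and 0.410).

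**Figure D3:**
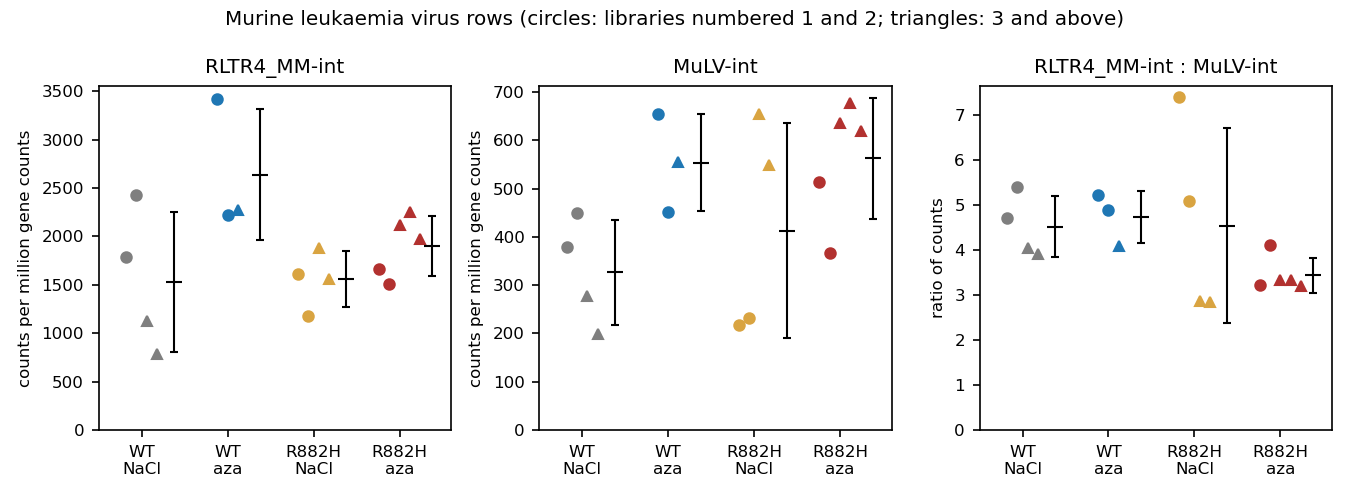
Level of RLTR4_MM-int and MuLV-int (CPM) and the ratio of their counts in each library; circles are libraries numbered 1 and 2, triangles those numbered 3 and above, and bars are mean ± SD (n = 4, 3, 4 and 5). In R882H with NaCl the ratio is 7.40 and 5.09 in libraries 1 and 2 and 2.87 and 2.84 in libraries 3 and 4.

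MuLV-int separated libraries by number within the NaCl groups, in opposite directions: numbers 1 and 2 were above 3 and 4 in WT and under them in R882H. RLTR4_MM-int parted the same way in WT but overlapped in R882H, and RLTR4_Mm, at 254, 225, 216 and 207 CPM in R882H with NaCl, parted the other way there, as did MMVL30-int, which is part of the class sums that follow. In WT with NaCl the MuLV and VL30 class stood at 460 and 574 CPM in libraries 1 and 2 and at 335 and 278 CPM in libraries 3 and 4. In R882H with NaCl it stood at 378 and 352 CPM in libraries 1 and 2 and at 727 and 630 CPM in libraries 3 and 4. The log2 difference between R882H and WT under NaCl was therefore -0.50 in libraries 1 and 2 and 1.15 in libraries 3 and above, against 0.34 over all libraries. With libraries 3 and above only, 2 in each of these groups, the log2 difference of MuLV-int between R882H and WT under NaCl was 1.33. That subset is one side of the split by number just described, so no test result is read from it. The labels do not say what a number stands for.

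Marker genes also differed between these libraries; the sums are CPM on TMM library sizes. The summed level of 10 LSK identity genes was 2868 to 2974 CPM in WT NaCl libraries 1 and 2 and 4434 to 4540 CPM in libraries 3 and 4, and 1650 to 2403 CPM against 4738 to 4802 CPM in R882H. The 9 erythroid genes summed to 1642 and 5556 CPM in R882H NaCl libraries 1 and 2 and to 172 and 164 CPM in libraries 3 and 4. The globin gene Hba-a1 was at 206.7, 81.8, 3.24 and 16.3 CPM in R882H NaCl libraries 1 to 4, and Hbb-bs at 74.0, 12.4, 1.91 and 12.9 CPM. Both were highest in library 1, whereas the erythroid sum was highest in library 2, where other genes of the list made up most of it. Hbb-bs was no higher in library 2 than in library 4. B and plasma cell genes summed to 934 to 48484 CPM over all libraries, nearly all from immunoglobulin genes and Jchain, while Ms4a1 had a mean of at most 1.4 CPM in each group. The 9 mature myeloid genes summed to 1694 to 8713 CPM, highest in WT azacitidine library 2. The 10 T and NK cell genes summed to 316 to 907 CPM, also highest in WT azacitidine library 2, and to 617 CPM in R882H NaCl library 1. Cd3e did not follow that sum, at 0.027 CPM in WT azacitidine library 2 and 23.8 CPM in R882H NaCl library 1. It was at most 3.0 CPM in every library but R882H NaCl library 1. The part of these marker genes in the ERV levels was not tested. In bulk RNA, fewer cells of a type and less RNA per cell cannot be told apart.

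MMVL30-int, the internal part of the VL30 element, was at 70.1, 109.7, 46.6 and 63.6 CPM in WT with NaCl and at 270.04, 108.8 and 105 CPM in WT with azacitidine. In R882H it was at 144, 111, 59.7 and 66.9 CPM with NaCl and at 86.1, 93.2, 88.0, 62.3 and 77.5 CPM with azacitidine. The WT groups overlapped through NaCl library 2, and under azacitidine all 5 R882H libraries lay under all 3 WT libraries. The log2 difference was 1.15 ± 0.35 (SE; edgeR adjusted p = 0.227) in WT, -0.23 ± 0.31 (adjusted p = 0.991) in R882H and -0.99 ± 0.33 (adjusted p = 0.298) between R882H and WT under azacitidine. RLTR6_Mm, the VL30 LTR, moved with it at a ratio of 0.0532 to 0.0847 of its counts in every library. Its log2 difference was 1.06 ± 0.37 (adjusted p = 0.275) in WT and -0.60 ± 0.32 (adjusted p = 0.991) in R882H.

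RLTR6C_Mm, a scarce relative of that LTR, had the largest fitted difference of any ERV row in WT. It was at 0.822, 1.45, 0.173 and 0.471 CPM with NaCl and at 4.65, 2.29 and 1.17 CPM with azacitidine, where 1 treated library lay inside the NaCl range. In R882H it was at 2.33, 0.836, 0.649 and 0.671 CPM with NaCl and at 0.625, 0.914, 0.946, 0.647 and 1.05 CPM with azacitidine. The log2 difference was 1.89 ± 0.49 in WT (SE, edgeR adjusted p = 0.0609). Between R882H and WT under azacitidine the difference was -1.69 ± 0.45 (adjusted p = 0.0778), and neither passed the threshold. In WT it was called with no filter (adjusted p = 0.0216) and when any of 9 libraries was left out: R882H azacitidine 1, 4 or 5, R882H NaCl 1, 3 or 4, WT azacitidine 2 or 3, or WT NaCl 2 (edgeR adjusted p = 0.00586 to 0.0493). Between genotypes under azacitidine it was called with no filter (adjusted p = 0.0306) and when R882H NaCl library 1 or 3, WT azacitidine library 2 or 3 or WT NaCl library 2 or 3 was left out (edgeR adjusted p = 0.00897 to 0.0377). The difference between the responses, -2.30 ± 0.65 (adjusted p = 0.251), was called without R882H NaCl library 3, WT azacitidine library 2 or 3, or WT NaCl library 2 (adjusted p = 0.0146 to 0.0498). Other settings left RLTR6C_Mm uncalled in WT: TMM of the gene counts (edgeR adjusted p = 0.192), TMM over repeat rows (0.917) and DESeq2 (0.200). So did genes and repeats in 1 fit (edgeR adjusted p = 0.801), the replicate block (0.229) and leaving out WT azacitidine library 1 (0.999). Between genotypes under azacitidine its adjusted p was 0.140 with TMM of the gene counts, 0.713 with TMM over repeat rows and 0.253 with DESeq2. The endogenous MuRRS elements, related rows without a strong signal here, had a log2 difference of 0.32 ± 0.34 for MuRRS-int in WT (adjusted p = 0.452).

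MMERVK rows, beta-retrovirus-like ERVK families, held the only ERV row that passed the test. MMERVK10D3_I-int was at 4.50, 7.52, 3.92 and 4.34 CPM in WT with NaCl and at 21.8, 13.4 and 9.33 CPM in WT with azacitidine. The 2 groups did not overlap, and all 3 treated libraries were above the highest NaCl library. It rose by 1.55 ± 0.37 on the log2 scale (SE, edgeR adjusted p = 0.0479). The rRNA repeats LSU-rRNA_Hsa and SSU-rRNA_Hsa had the same adjusted p, so this value depends on their low p-values too. The edgeR unadjusted p was 6.77e-05 for MMERVK10D3_I-int, 0.00014 for LSU-rRNA_Hsa and 9.72e-05 for SSU-rRNA_Hsa. In R882H, MMERVK10D3_I-int was at 15.3, 7.78, 5.17 and 5.30 CPM with NaCl and at 6.70, 9.16, 9.86, 7.16 and 9.61 CPM with azacitidine. These overlapped, with a log2 difference of 0.02 ± 0.32 (adjusted p = 0.991), and the difference between the genotypes' responses was -1.53 ± 0.49 (adjusted p = 0.347). When libraries were scaled by their repeat counts its WT difference was 1.13 (adjusted p = 0.917). With TMM of the gene counts the adjusted p was 0.0606, with genes and repeats in 1 fit 0.698 and with DESeq2 0.0513. With the replicate number as a block the edgeR adjusted p was 0.229, and without the 2 libraries with the largest repeat share 0.172. The call was lost when WT azacitidine library 1, WT NaCl library 1, 3 or 4, or R882H NaCl library 2 was left out. Its neighbour MMERVK10C-int had a log2 difference of 0.31 ± 0.36 in WT (adjusted p = 0.483).

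**Figure D4:**
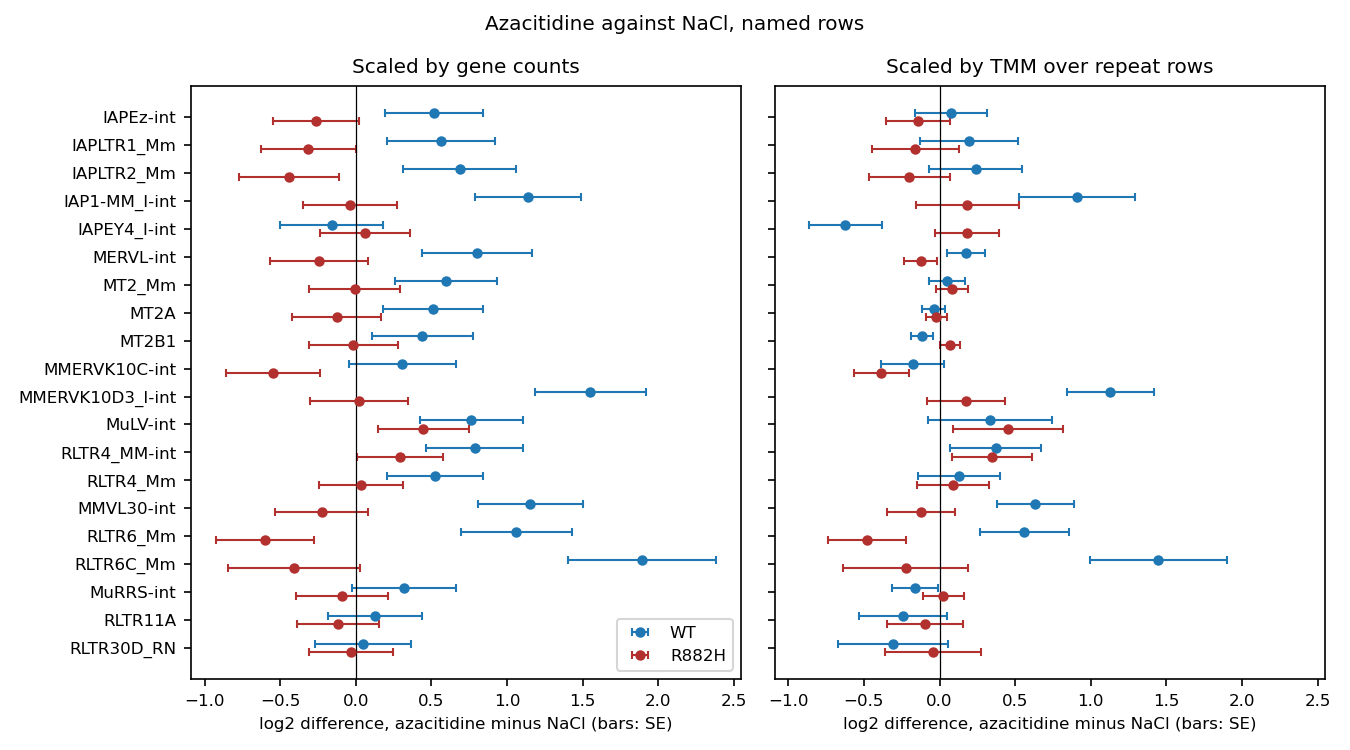
Log2 difference between azacitidine and NaCl for 20 named ERV rows in WT (blue) and R882H (red), with libraries scaled by gene counts (left) and by TMM over repeat rows (right); bars are SE. MMERVK10D3_I-int stands at 1.55 in WT on the left and at 1.13 on the right, while MT2_Mm moves from 0.60 to 0.05.

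Counts of called rows put these rows in context. In WT, 1 of 218 ERV rows was higher under azacitidine, against 0.293% of all 1024 repeat rows tested; the other 2 called rows were rRNA repeats, LSU-rRNA_Hsa and SSU-rRNA_Hsa. At an unadjusted p under 0.05, 30 ERV rows were higher and none lower, against 14.7% of all repeat rows higher. The fitted difference was above 0 in 208 of 218 ERV rows, against 96.9% of all repeat rows, and the median log2 difference was 0.52 for ERV rows and 0.56 for all repeat rows. The 8 ERV rows whose treated libraries all lay above the NaCl libraries were 3 IAP rows, 1 MMERVK row, MuLV-int and the 3 RLTR rows RLTR10A, RLTR48C and RLTR6_Mm, named after their values were seen, against 3.22% of all repeat rows. DESeq2 called no ERV row.

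When the 3 treated WT libraries were taken apart, the median moved with which one was left out. It was 0.10 without library 1, 0.52 with all and 0.79 without library 2. Without library 2 the test called 103 ERV rows higher in WT. Without library 1 it called 0. The share of all repeat rows called in these fits is not given here, so neither count is read as particular to ERV rows. By the level of the other repeats, libraries 1 and 2 were the highest and the second lowest of all 16. Scaled by TMM over repeat rows, the median over the ERV rows was -0.02, 97 rows were above 0 and 121 under 0, against 49.2% of all repeat rows above 0. No row was called on that scale, against 0% of all repeat rows, and 5 rows were higher and 8 lower at an unadjusted p under 0.05, against 2.65% and 1.57% of all repeat rows.

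In R882H, 0 ERV rows were higher or lower under azacitidine by edgeR, against 0% of all repeat rows, and 1 had an unadjusted p under 0.05 (RLTR13D3, lower), against 1.17% of all repeat rows lower. DESeq2 also called 0. Fitted differences were below 0 in 171 of 218 rows, against 74.1% of all repeat rows, with medians of -0.14 and -0.12. RLTR12B and RLTR13B4 had all treated libraries under all NaCl libraries, against 0.391% of all repeat rows. Without the 2 libraries with the largest repeat share the median was 0.05. Scaled by TMM over repeat rows, 88 rows were above 0 and 130 under 0, against 47.2% of all repeat rows above 0; 4 were higher and 10 lower at an unadjusted p under 0.05, against 1.27% and 2.16%. The median on that scale was -0.05.

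The difference between the responses, R882H minus WT, was below 0 in 207 of 218 ERV rows, against 95.1% of all repeat rows. No ERV row was called by edgeR or DESeq2, against 0.195% of all repeat rows lower (both rRNA repeats), and 26 ERV rows had an unadjusted p under 0.05, all lower, against 12.4%. The median log2 difference between responses was -0.69 for ERV rows, -0.04 after scaling by TMM over repeat rows and -0.07 without the 2 libraries with the largest repeat share. By class the medians were -0.69 for IAP, -0.49 for MERVL, -0.55 for MuLV and VL30, -0.92 for MMERVK and -0.70 for RLTR rows. On the repeat scale 98 rows were above 0 and 120 under 0, against 48% of all repeat rows above 0, with 5 higher and 7 lower at an unadjusted p under 0.05, against 1.67% and 2.75%. Without WT azacitidine library 2, 21 ERV rows were called. The share of all repeat rows in that fit is not given here, so the count is not read as particular to ERV rows.

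The azacitidine effect averaged over the genotypes called no ERV row, against 0% of all repeat rows, with 11 higher and 1 lower at an unadjusted p under 0.05, against 3.42% and 0.195%. Fitted differences were above 0 in 192 rows, against 90.5% of all repeat rows, with a median of 0.18. On the repeat scale the median was -0.04: 89 rows were above 0 and 129 under 0, against 47.9% of all repeat rows above 0; 2 were higher and 7 lower at an unadjusted p under 0.05, against 1.76% and 1.86%.

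Between genotypes under NaCl, no ERV row was called by edgeR or DESeq2, against 0% of all repeat rows, and 5 had an unadjusted p under 0.05, all higher in R882H, against 1.56%. The fitted difference was above 0 in 178 of 218 rows, against 81.7% of all repeat rows, and the median log2 difference was 0.19. On the repeat scale that median was -0.0004, with 109 rows above and 109 under 0, against 49.1% of all repeat rows above 0. At an unadjusted p under 0.05, 4 rows were higher and 5 lower on that scale, against 1.37% and 1.67%. RLTR10D2 and RLTR44D, named after their values were seen, did not overlap between the groups, against 0.586% of all repeat rows. Under azacitidine, no ERV row was called, against 0.391% of all repeat rows lower in R882H, and 36 had an unadjusted p under 0.05, all lower, against 14.6%. The fitted difference was below 0 in 200 rows, against 94.1% of all repeat rows, and 15 rows had all R882H libraries under all WT libraries, against 4.69%; MMVL30-int, RLTR6_Mm, RLTR6C_Mm and MMERVK10D3_LTR were among them. The median was -0.49, and -0.07 without WT azacitidine library 1. When the libraries were scaled by repeats it was -0.02, with 104 rows above and 114 under 0, against 47.7% of all repeat rows above 0. There 10 rows were higher and 3 lower at an unadjusted p under 0.05, against 3.14% and 3.33%. Without WT azacitidine library 2, 92 ERV rows were called in this comparison. That count also lacks the share of all repeat rows and is not read as particular to ERV rows.

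Genes that silence or sense ERVs were compared in the same libraries. Of 32 tested genes of the silencing list, none was called in any of the 6 contrasts, against at most 0.0164% of genes in either direction. At an unadjusted p under 0.05, 1 silencing gene was lower under azacitidine in R882H, against 4.34% of genes, and 0 were higher or lower in WT, against 3.8% and 2.11%. Under azacitidine, 4 were lower in R882H than in WT, against 6.31% of genes. The gene lower under azacitidine in R882H was Gm15446, and a single NaCl library held its high value. It was at 10.8 CPM in R882H NaCl library 3, at 0.272 to 0.511 CPM in libraries 1, 2 and 4, and at 0.193 to 0.513 CPM with azacitidine. Gm15446 was also among the 4, with 9.72 CPM in WT azacitidine library 3 and 0.471 and 0.568 CPM in libraries 1 and 2. Dnmt1, the maintenance methyltransferase, was at 321 ± 91.7 CPM in WT with NaCl and 256 ± 18.6 CPM with azacitidine (SD, n = 4 and 3), a log2 difference of -0.32 ± 0.34 (SE; edgeR adjusted p = 0.924). Uhrf1, which directs DNMT1 to replicated DNA, had -0.25 ± 0.23 in WT and 0.14 ± 0.20 in R882H. Setdb1, Trim28, Hells, a chromatin remodeller needed for ERV methylation, and Zfp809, the zinc finger protein that silences MuLV-type proviruses, lay between -0.17 and 0.05 in WT, with adjusted p of 0.924 or more.

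Restriction and sensing genes were likewise not called. Apobec3, a deaminase that restricts MuLV, was at 350.4 ± 37.1 CPM in WT with NaCl and 387 ± 34.7 CPM with azacitidine, and at 283 ± 73.2 and 241 ± 102 CPM in R882H (SD, n = 4, 3, 4 and 5). Fv1, which blocks incoming MuLV capsids, was at 2.26 ± 0.74 and 3.42 ± 2.29 CPM in WT. All 10 tested genes of the RNA and DNA sensing list had fitted differences under 0 in WT under azacitidine, with a median of -0.31, and 6 of 10 were above 0 in R882H, where 2 were higher at an unadjusted p under 0.05, against 2.28% of genes. The difference between the responses was positive in all 10 (median 0.46), but none was called in any contrast by edgeR or DESeq2. These directions were not particular to sensing genes. Of the 10 LSK identity genes, 9 were under 0 in WT (median -0.30), and the difference between responses was positive in all 10 (median 0.35). The silencing list held 16 genes above and 16 under 0 in both comparisons. The shares of all genes by direction are not given here. Of 18345 genes, 0% were called for that difference, and 0.00545% were called lower under azacitidine in R882H.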

How the data were processed

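RNA of 16 LSK libraries was counted by the authors. The deposited files hold raw counts per gene and repeat family and, as another unit, the number of annotated bases of each. The submitters' processing notes name HISAT2 2.0.5, featureCounts 1.6.2, edgeR 3.26.6 and GRCm38 (mm10). The strand setting, the rule for reads with several positions and the source of the repeat annotation are not given in the sources used here, so related families may share reads, and repeats inside host genes cannot be told from retroviral transcripts. Per the labels' protocols, samples with a RIN under 8 were excluded, and a kit for very small RNA inputs amplified the cDNA.

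Repeat rows were kept by filterByExpr of edgeR 4.0.16 (R 4.3.3), which left 1024, and fitted with a quasi-likelihood model to all 16 libraries, with library size set to the gene count total and 1 coefficient per group. The 6 contrasts were tested and p-values adjusted by Benjamini-Hochberg over all repeat rows tested; an adjusted p under 0.05 was a call. Genes (18345 tested) were fitted with TMM sizes (their CPM values use them) and are levels with SD. Alternatives were DESeq2 1.42.0, TMM over genes or repeats, no filter, 1 fit with genes, a replicate block, number subsets and leaving out libraries. The named rows were a fixed set of internal parts with their LTRs, the 4 most abundant rows of each class, and in each contrast the called rows or, where fewer than 3 were called, the 3 with the lowest p. On simulated data the model recovered 45 of 100 rows changed 2-fold in the R882H comparison and 41 of 99 in the WT comparison, and 97 and 94 of 100 changed 4-fold. It falsely called 3 of 810 and 3 of 812 unchanged rows. The simulation had no shift shared by all repeat rows of a library. In the real libraries the TMM factors over repeat rows ran from 0.658 to 2.12, so these rates may not hold there. The members and lists were chosen with earlier results of these data known. Reads have no molecular identifiers. SDs describe variation among the libraries of a group, while SEs come from the fit, in which all groups share the estimate of the spread. Among 25 within-group pairs of libraries, chi-square per gene was at least 42.0, so none was a copy.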

Additional observations from a re-analysis of the deposited data

Results flagged for a closer look

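Of 144 groups of 4 or 5 libraries, 7 held a library far from the others. That is about the share that chance alone gives (5% of groups), so the rows are listed as values only. R882H NaCl library 1 and WT NaCl library 2 also had the highest level of the other repeats in their groups, at 47544 and 39908 CPM. In R882H with NaCl, library 1 was high for IAPLTR2_Mm, an IAP LTR, at 80.8 CPM against 21.7 to 22.0 CPM in the others. It was also high for RLTR13D3, at 8.02 CPM against 2.23 to 2.27 CPM, and for RLTR6C_Mm, at 2.33 CPM against 0.649 to 0.836 CPM. Library 2 of that group was high for RLTR11A, at 152 CPM against 124 to 129 CPM. In WT with NaCl, library 2 was high for MMERVK10D3_I-int, at 7.52 CPM against 3.92 to 4.50 CPM, and for RLTR13B2, at 5.82 CPM against 2.81 to 3.27 CPM. In R882H with azacitidine, library 4 was high for MMERVK9E_I-int, at 7.51 CPM against 4.58 to 5.25 CPM.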

How the results depend on the processing

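The 1 row called in WT, MMERVK10D3_I-int, gave 0 with TMM of genes (adjusted p = 0.0606), TMM over repeats (0.917), 1 fit with genes (0.698), DESeq2 (0.0513), the replicate block (0.229), libraries 1 and 2 only (0.890) and without the 2 libraries with the largest repeat share, chosen after seeing the data (0.172); there were 2 rows with no filter, and 3 with libraries 3 and above, where it had 0.121 and WT with azacitidine has 1 library, assumed to vary like the others. Leaving out 1 library at a time gave 0 to 103 ERV rows in WT and 0 to 21 for the difference between responses. It gave 0 to 92 for R882H against WT under azacitidine and 0 to 1 for the averaged effect. The matching shares of all repeat rows are not given here. With libraries 3 and above, the log2 difference of MuLV-int between R882H and WT under NaCl was 1.33, in a fit with 1 WT azacitidine library. No filter gave 1 row for R882H against WT under azacitidine. The cause was not tested.

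Class levels, as log2 differences, moved with TMM over repeats. In WT, IAP went from 0.43 to -0.00017, MERVL from 0.46 to -0.094, MuLV and VL30 from 0.83 to 0.38, MMERVK from 0.63 to 0.14 and RLTR from 0.64 to 0.20. The difference between responses went from -0.59 to -0.017 (IAP), -0.50 to 0.16 (MERVL), -0.50 to -0.017 (MuLV and VL30), -0.89 to -0.27 (MMERVK) and -0.52 to -0.0033 (RLTR). R882H against WT under azacitidine went from -0.39 to 0.090 (MERVL), -0.49 to -0.066 (MMERVK) and -0.46 to -0.096 (RLTR). Without the 2 libraries the difference between responses was -0.030 (IAP), 0.057 (MERVL) and -0.19 (MMERVK). With libraries 3 and above, IAP was 0.022 in WT and 0.089 between genotypes under azacitidine; the difference between responses was -0.11 (IAP), -1.03 (MuLV and VL30) and -0.31 (MMERVK), and 0.019 for MuLV and VL30 in libraries 1 and 2. R882H against WT under NaCl was -0.50 in libraries 1 and 2 and 1.15 in 3 and above for MuLV and VL30, and -0.32 and 0.53 for RLTR. The cause was not tested.

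Same-numbered libraries of 2 groups had correlations of -0.117 to 0.312 over genes, above 0.1 in 8 of 21 pairs, so the numbers were not taken to pair the samples; with the replicate block, 0 ERV rows were called in every contrast.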
